A study of Mus musculus with 12 samples.

Results

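Collagen chain genes encode the polypeptides that wind into the triple helices of the extracellular matrix, and all 44 of them in the deposited expression table were examined in 12 bulk melanoma transcriptomes. The members were every gene symbol made of Col, a number, the letter a and a number, such as Col1a1, which gave 44 of 32416 symbols. The 6 other symbols starting with Col did not have that form. By the kind of structure their products build, they comprised 11 fibrillar chains, 6 type IV chains of basement membranes, 6 type VI chains, 9 fibril-associated chains, 2 multiplexins, 3 short-chain network formers, 4 transmembrane collagens and 3 others.

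The tumours grew under the skin of C57BL/6 mice from B16mhgp100 or B16F10 cells, mouse melanoma lines that carried either an Aoah over-expression construct or an empty Vector. Aoah encodes acyloxyacyl hydrolase, a lipase that takes acyl chains off bacterial lipopolysaccharide. Of B16mhgp100 there were 4 tumours with Aoah and 4 with Vector, and these mice received anti-PD1 from day 10. Of B16F10 there were 2 tumours with Aoah and 2 with Vector, and those mice received anti-PD1 together with anti-CTLA4 from day 6. Each antibody was used at 200 µg in 4 doses, and tumours were collected 1 day after the last. No tumour was left without antibody, and the cell line, the antibodies and the first day of treatment changed together, so that their effects cannot be told apart. The labels do not state whether the tumours of a group came from separate mice, so p-values describe the spread between these tumours.

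Levels are given as TPM, transcript abundances scaled for gene length and for the library total. Levels of different genes can therefore be compared, but the number of reads behind a value is unknown. Aoah itself stood between 13.96 and 22.46 TPM in B16mhgp100 Aoah tumours 1 to 3 and between 21.8 and 23.7 TPM in both B16F10 Aoah tumours. Tumour 4 of the B16mhgp100 Aoah group had 3.91 TPM, inside the range of the B16mhgp100 Vector tumours, which was 0.89 to 7.58 TPM. It is called the library labelled Aoah 4 below. It also stood apart in its markers: the summed level of 6 keratinocyte genes was 4408 TPM there and at most 27.5 TPM in the other 11 libraries, that of 6 skeletal muscle genes was 3289 TPM against at most 577 TPM, and that of 7 melanocyte genes was 7802 TPM against at least 15744 TPM. All 7 melanocyte markers were above 0 in every library.

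Collagen chains are made mainly by fibroblasts, pericytes, endothelial cells and other stromal cells, though epithelial and tumour cells contribute some. Each chain is synthesised as a precursor, joined to its partner chains in the endoplasmic reticulum and secreted. Fibrillar collagens form the banded fibrils of connective tissue, type IV collagen forms the sheet under endothelium and around vessels, and type VI collagen forms beaded filaments between that sheet and the fibrils. In a tumour these genes are often read as a measure of stroma. In a bulk sample, fewer cells of a type and less RNA per cell cannot be told apart.

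Promoter sequences of 2 fibrillar chains and of a type VI chain are printed, as these are abundant chains whose levels are compared between the groups further on. They are the 250 bases before the annotated start in the RefSeq table of build GRCm38.p6, which held 38 entries for 35 of the 44 chains. The deposited values were made on mm39, so these coordinates are those of the promoter table only. Capitals mark matches on either strand to GGGCGG, the core of the Sp1 site, to CCAAT and to TATAAA. The Col1a2 window is chr6:4505368-4505617 on the plus strand, that of Col3a1 is chr1:45311288-45311537 on the plus strand, and that of Col6a1 is chr10:76726045-76726294 on the minus strand.
Col1a2: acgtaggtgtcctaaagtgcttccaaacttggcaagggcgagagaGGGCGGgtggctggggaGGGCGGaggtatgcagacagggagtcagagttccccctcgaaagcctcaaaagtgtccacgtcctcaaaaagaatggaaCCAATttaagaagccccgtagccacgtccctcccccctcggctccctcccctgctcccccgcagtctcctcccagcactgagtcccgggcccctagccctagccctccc
Col3a1: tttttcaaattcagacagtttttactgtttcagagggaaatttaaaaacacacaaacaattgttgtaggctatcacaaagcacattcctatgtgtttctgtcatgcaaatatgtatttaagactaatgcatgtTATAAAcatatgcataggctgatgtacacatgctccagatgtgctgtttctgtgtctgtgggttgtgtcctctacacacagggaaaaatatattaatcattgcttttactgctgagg
Col6a1: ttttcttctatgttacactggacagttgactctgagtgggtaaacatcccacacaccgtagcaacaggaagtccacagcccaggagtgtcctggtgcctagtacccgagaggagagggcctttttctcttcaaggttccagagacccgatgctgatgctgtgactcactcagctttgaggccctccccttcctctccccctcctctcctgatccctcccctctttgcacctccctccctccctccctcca
The Col1a2 window held GGGCGG at 205 to 200 and at 188 to 183 bases before the start and CCAAT at 109 to 105 bases before it. The Col3a1 window held TATAAA at 117 to 112 bases before the start and neither of the other motifs. None of these letters occurred in the Col6a1 window, which says nothing about any factor. Over the windows of all 38 chain entries, GGGCGG was present in 22 (57.9%), CCAAT in 13 (34.2%) and TATAAA in 5 (13.2%). Among all 32851 windows of the table the shares were 32.7%, 33.8% and 12.4%.

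Across the 12 libraries 14 chain genes had a mean of at least 10 TPM, 12 had a mean of 1 to 10 TPM and 18 were below 1 TPM. In all 12 libraries 19 chains reached 1 TPM, while 11 chains reached it in none and 11 were listed at 0 in at least 1 library. The 14 abundant chains made up between 88.0% and 96.1% of the summed collagen TPM of a library. Col3a1 was the chain with the highest level in 9 libraries, Col4a1 in 2 and Col1a2 in 1. The 2 libraries led by Col4a1 were Vector 2 and Aoah 3 of the B16mhgp100 model, and the one led by Col1a2 was the library labelled Aoah 4.

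The total over all chains differed 8.96-fold between the lowest and the highest library. It was 1405, 372, 695 and 796 TPM in B16mhgp100 Vector tumours 1 to 4 and 1084, 2500.3, 376 and 501 TPM in B16mhgp100 Aoah tumours 1 to 4. In the B16F10 model it was 780.0 and 801 TPM in the Vector tumours and 394 and 279 TPM in the Aoah tumours. The B16mhgp100 groups thus overlapped over a wide range, with both of them holding a tumour near 375 TPM, whereas both B16F10 Aoah tumours lay under both B16F10 Vector tumours.

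**Figure D1:**
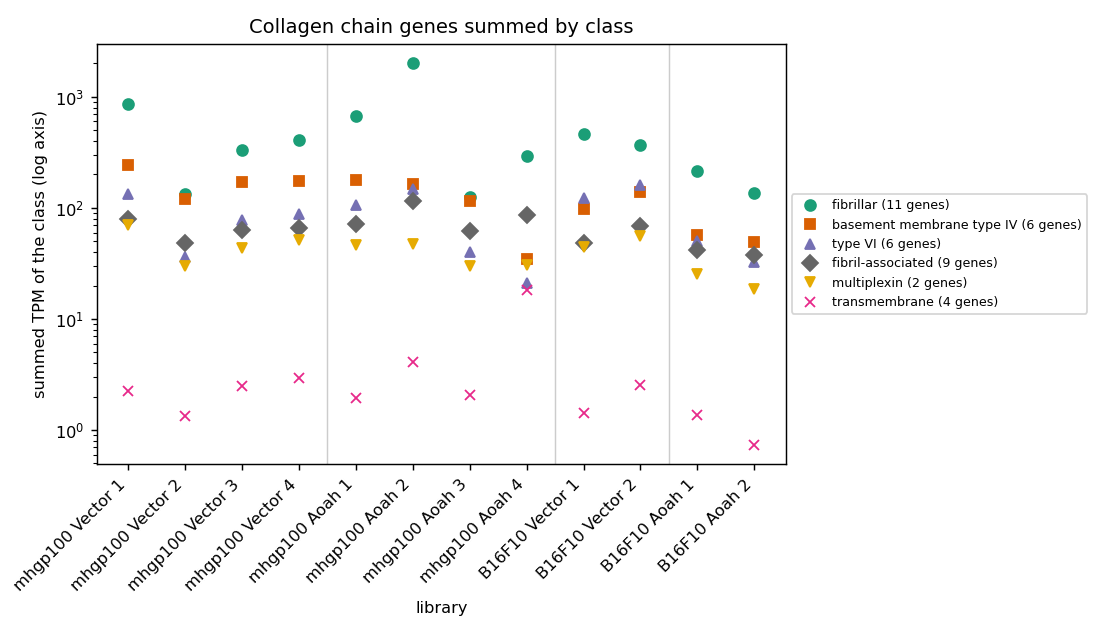
Summed TPM of 6 collagen classes (log axis) in each of the 12 libraries, with 1 symbol per class and library. Fibrillar chains are the highest class in all 12 libraries, from 125 to 2012 TPM, and the transmembrane sum of the library labelled Aoah 4 is 18.3 TPM against at most 4.14 TPM in the others.

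Fibrillar chains formed the largest class in all 12 libraries, and their share of the collagen TPM ran from 33.1% in B16mhgp100 Aoah 3 to 80.5% in B16mhgp100 Aoah 2. Type IV was second in 9 libraries, type VI in 2 and the fibril-associated class in 1. The 2 libraries with type VI second were both B16F10 Vector tumours, where type VI summed to 122 and 160.5 TPM and type IV to 98.2 and 139 TPM. The fibrillar sum spread 16.1-fold over the libraries, the type IV sum 7.04-fold, the type VI sum 7.59-fold and the fibril-associated sum 3.02-fold. Without the library labelled Aoah 4 the type IV spread was 5.01-fold and the type VI spread 4.88-fold, and the fibrillar and fibril-associated spreads were as before. The small transmembrane sum spread 25.1-fold with that library and 5.67-fold without it.

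Col16a1, a fibril-associated chain found near cell surfaces and basement membranes, varied least of the abundant chains, from 30.8 to 68.5 TPM (2.22-fold). Col3a1 varied most among them, from 26.3 to 1218 TPM (46.3-fold). B16mhgp100 Aoah 2 was the highest library for 7 of the 14 abundant chains, B16mhgp100 Vector 1 for 4, B16F10 Vector 2 for 2 and the library labelled Aoah 4 for 1. The lowest was the library labelled Aoah 4 for 6 chains, B16F10 Aoah 2 for 5, B16mhgp100 Aoah 3 for 2 and B16mhgp100 Vector 2 for 1.

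**Figure D2:**
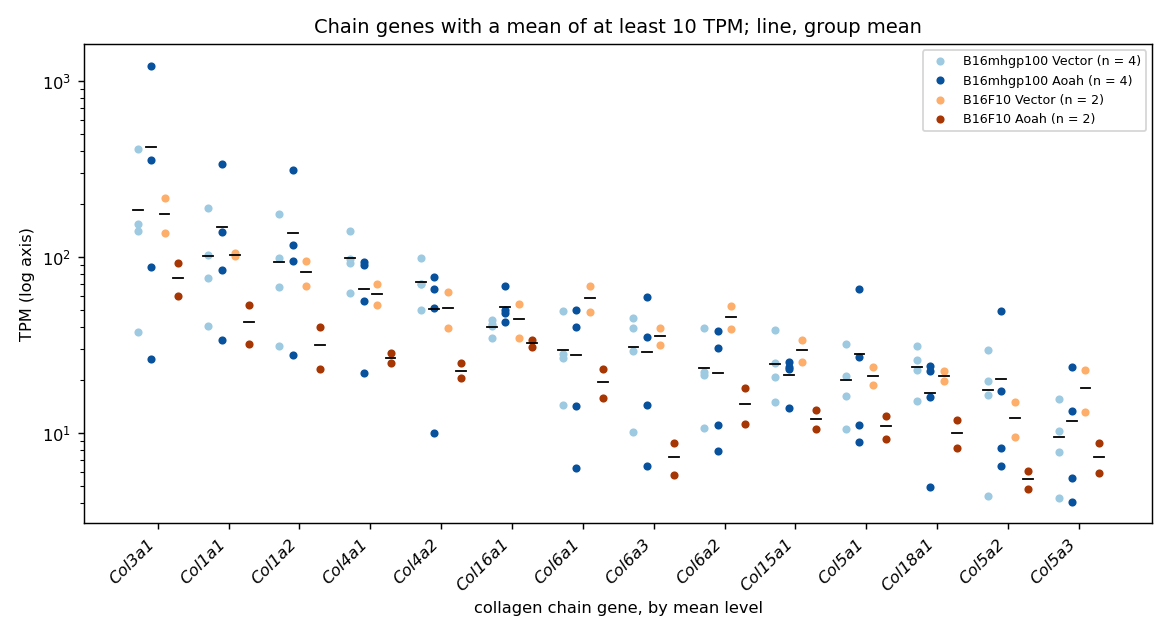
TPM (log axis) of the 14 chains with a mean of at least 10 TPM, ordered by that mean; points are libraries, coloured by group (n = 4, 4, 2 and 2), and black lines are group means. Both B16F10 Aoah points lie under both B16F10 Vector points for all 14 chains, and the B16mhgp100 groups overlap for all 14.

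The ratio between partner chains was steady for 3 pairs and not for others. Col4a1 and Col4a2, which form the common type IV heterotrimer and are read in opposite directions from starts 21 bases apart on chromosome 8 (GRCm38.p6), had a Col4a1 to Col4a2 ratio between 1.10 and 1.43 in 11 libraries and 2.18 in the library labelled Aoah 4. Col4a1 was above Col4a2 in 12 of 12 libraries. Whether reads kept their strand is not given, and reads from an overlap of their transcripts cannot be told apart without it. Col1a1 over Col1a2, the chains of type I collagen, was 1.04 to 1.53 in 11 libraries and 0.89 in the library labelled Aoah 4. Col6a1 over Col6a2 was 1.20 to 1.41 in 11 libraries and 0.80 in that library. Over 11 libraries, without the library labelled Aoah 4, the levels of these 6 genes ranged 4.76-fold to 13.4-fold. Col5a1 over Col5a2, chains of type V collagen, ran from 0.83 to 2.51 with and without that library.

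The ratio of Col6a3 to Col6a1 did not hold across the models. Col6a3 encodes the third and longest chain of type VI collagen, from which the fragment endotrophin is cut. The ratio was 0.91, 0.71, 1.04 and 1.48 in B16mhgp100 Vector tumours, and 0.88, 1.18, 1.01 and 1.03 in B16mhgp100 Aoah tumours. It was 0.65 and 0.58 in B16F10 Vector tumours and 0.38 and 0.37 in B16F10 Aoah tumours. All 4 B16F10 libraries were below all 8 B16mhgp100 libraries, and within the B16F10 model both Aoah tumours were below both Vector tumours. Between the models the log2 ratio differed by 1.08 (exact 2-sided permutation p = 0.00202, the smallest that 8 against 4 libraries allow, and 0.0394 after Benjamini-Hochberg adjustment over 39 ratio tests, with all 8 libraries of 1 model above all 4 of the other). Col6a3 over Col6a2 differed by 0.97 with the same exact permutation p and adjusted p. These ratio tests were added after the levels had been seen, and describe these libraries. Within the B16F10 model the difference was -0.72, with an exact permutation p of 0.333, the smallest that 2 against 2 tumours allow. Leaving out any 1 library kept the model difference of the Col6a3 to Col6a1 ratio between 0.95 and 1.23 with an exact permutation p of at most 0.00606.

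**Figure D3:**
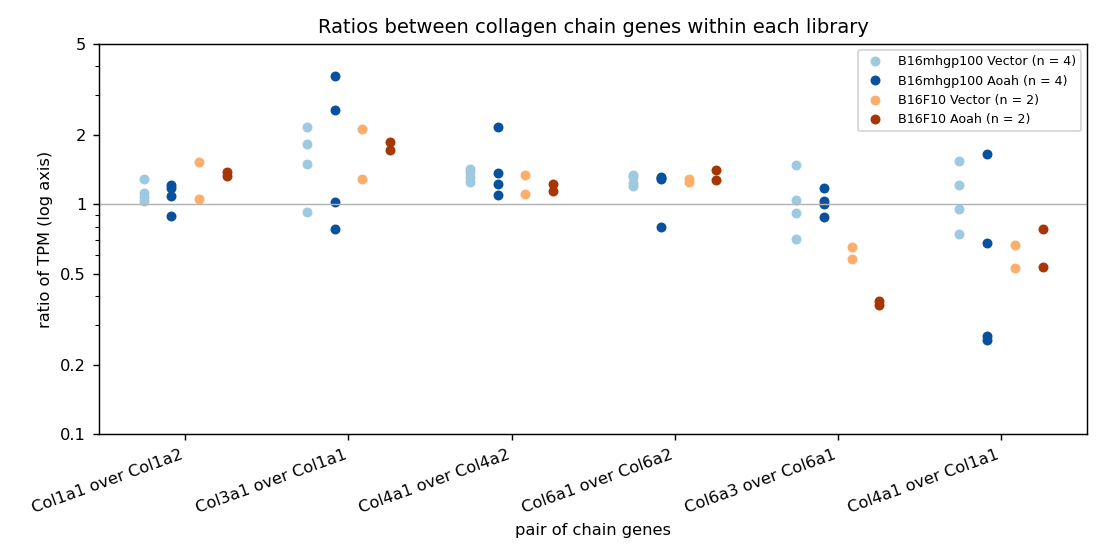
Ratio of TPM between 2 chain genes (log axis) for 6 pairs, 1 point per library, coloured by group (n = 4, 4, 2 and 2); the line marks a ratio of 1. Col6a3 over Col6a1 lies between 0.37 and 0.65 in the 4 B16F10 libraries and between 0.71 and 1.48 in the 8 B16mhgp100 libraries, while the library labelled Aoah 4 is the lowest point of Col1a1 over Col1a2 (0.89) and Col6a1 over Col6a2 (0.80) and the highest of Col4a1 over Col4a2 (2.18).

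In B16F10 tumours collagen chain genes were lower with Aoah than with Vector in nearly every class, although no single chain passed the threshold of the main test. Of the 44 chains, 24 passed the filter of 1 TPM in at least 2 of the 4 libraries. Of these 24, 23 had a negative Aoah minus Vector difference, as had 48.4% of all 14533 genes tested. The median was -1.01 on the log2(TPM + 1) scale, against 0.02 over all genes. At an adjusted p of 0.05 in limma with Benjamini-Hochberg adjustment, 0 chains were called, where 0.344% of all genes were. At an unadjusted p of 0.05, 15 chains were lower and 0 higher, where 7.28% of all genes were lower and 10.9% higher. In 20 chains both Aoah tumours lay below both Vector tumours, which held for 22.6% of all genes. Col20a1 was the reverse (28.0% of all genes), and Col11a2, Col4a4 and Col8a1 overlapped. Col20a1 passed the filter through the Aoah tumours alone, and Col7a1 and Col13a1 through the Vector tumours alone, so that a difference in them was built into the filter.

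For the 14 abundant chains, which passed in both groups, 14 differences were negative, from -2.16 to -0.41, and 14 had no overlap between the groups. Among all genes with a mean of at least 10 TPM, 21.8% had no overlap in that direction and 46.4% were below 0. With rescaled TPM 14 of 14 were also below 0. Leaving out a library, another pseudocount or a fit of all 12 libraries could not change these signs, because the groups did not overlap. Those settings are therefore no further test of the direction.

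Type VI chains showed the largest differences. Col6a3 (ENSMUSG00000048126) stood at 31.7 and 39.3 TPM in the Vector tumours and at 8.80 and 5.78 TPM in the Aoah tumours. The Aoah group was 4.46-fold lower on the log2(TPM + 1) scale, a difference of -2.16 (SE 0.28, 95% interval -2.86 to -1.45, limma adjusted p = 0.0585), just beyond the threshold. Col6a2, which joins Col6a1 and Col6a3 in the type VI heterotrimer, had 38.7 and 52.8 TPM with Vector and 18.1 and 11.2 TPM with Aoah (difference -1.60, SE 0.30, limma adjusted p = 0.104). Col6a1 had 48.5 and 67.9 TPM with Vector and 23.1 and 15.8 TPM with Aoah (difference -1.54, SE 0.28, limma adjusted p = 0.0976). The highest Aoah value of each of these genes was well under the lowest Vector value. The other 3 type VI chains, Col6a4, Col6a5 and Col6a6, did not pass the filter, and Col6a5 was listed at 0 in both Aoah tumours against 2.73 and 0.19 TPM with Vector.

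Fibrillar chains followed. Col1a1, the more abundant chain of type I collagen, stood at 101 and 105 TPM with Vector and 52.97 and 31.99 TPM with Aoah (difference -1.30, SE 0.27, limma adjusted p = 0.113). Col1a2, its partner, had 95.1 and 68.5 TPM with Vector and 39.7 and 23.2 TPM with Aoah (difference -1.38, SE 0.32, limma adjusted p = 0.131). Col3a1, the only chain of type III collagen, which accompanies type I in skin and vessel walls, had 215 and 136 TPM with Vector and 91.8 and 59.9 TPM with Aoah (difference -1.20, SE 0.31, limma adjusted p = 0.149). In these 3 genes the Vector tumours were 2.29-fold to 2.60-fold above the Aoah tumours on the fitted scale, with no overlap.

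The chains of type V collagen, which starts and limits the growth of type I fibrils, were at lower levels. Col5a1 had 18.6 and 23.6 TPM with Vector and 12.5 and 9.25 TPM with Aoah. Col5a2 had 14.9 and 9.42 and 6.09 and 4.80 TPM, and Col5a3 had 13.2 and 22.7 and 8.75 and 5.89 TPM, in the same order of groups. Their differences were -0.90, -1.005 and -1.16, with limma adjusted p of 0.178, 0.196 and 0.190. Col11a2, a type XI chain near 1 TPM, was the one fibrillar chain past the filter whose groups overlapped (difference -0.15).

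Basement membrane chains were lower as well. Col4a1 stood at 53.3 and 70.1 TPM with Vector and 28.3 and 24.96 TPM with Aoah (difference -1.17, SE 0.22, limma adjusted p = 0.0989). Col4a2 had 39.6 and 63.3 TPM with Vector and 24.8 and 20.4 TPM with Aoah (difference -1.12, SE 0.28, limma adjusted p = 0.145). Col4a5, a chain of a more restricted type IV network, had 3.47 and 4.33 TPM with Vector and 2.94 and 2.35 TPM with Aoah, a smaller difference of -0.43 (limma adjusted p = 0.464). The major pair was thus more than 2-fold apart between the groups, and Col4a5 was not.

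The multiplexins Col15a1 and Col18a1 carry glycosaminoglycan chains and lie at the outer face of basement membranes, and endostatin is released from the end of the Col18a1 product. Col15a1 had 25.1 and 33.9 TPM with Vector and 13.5 and 10.6 TPM with Aoah (difference -1.22, SE 0.26, limma adjusted p = 0.118). Col18a1 had 19.6 and 22.3 TPM with Vector and 11.8 and 8.20 TPM with Aoah (difference -1.02, SE 0.27, limma adjusted p = 0.151). In both genes the groups were well apart.

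Among fibril-associated chains, which decorate fibrils rather than forming them, the differences were uneven. Col16a1 had 34.6 and 53.98 TPM with Vector and 33.9 and 30.8 TPM with Aoah (difference -0.41, SE 0.26, limma adjusted p = 0.465), and its nearest tumours of the 2 groups nearly met. Col14a1 had 4.69 and 3.95 TPM with Vector and 1.95 and 1.17 TPM with Aoah (difference -1.07). Col12a1, a chain of stressed and healing connective tissue, had 3.87 and 4.60 and 2.07 and 1.74 TPM (difference -0.85). Col20a1 was the single chain with a positive difference, at 0.95 and 0.93 TPM with Vector and 1.22 and 1.45 TPM with Aoah (0.27, SE 0.24, limma adjusted p = 0.607). Col8a1, a short-chain network former of vessel walls, had 1.55 and 2.96 TPM with Vector and 1.98 and 1.03 TPM with Aoah, and its groups overlapped.

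**Figure D4:**
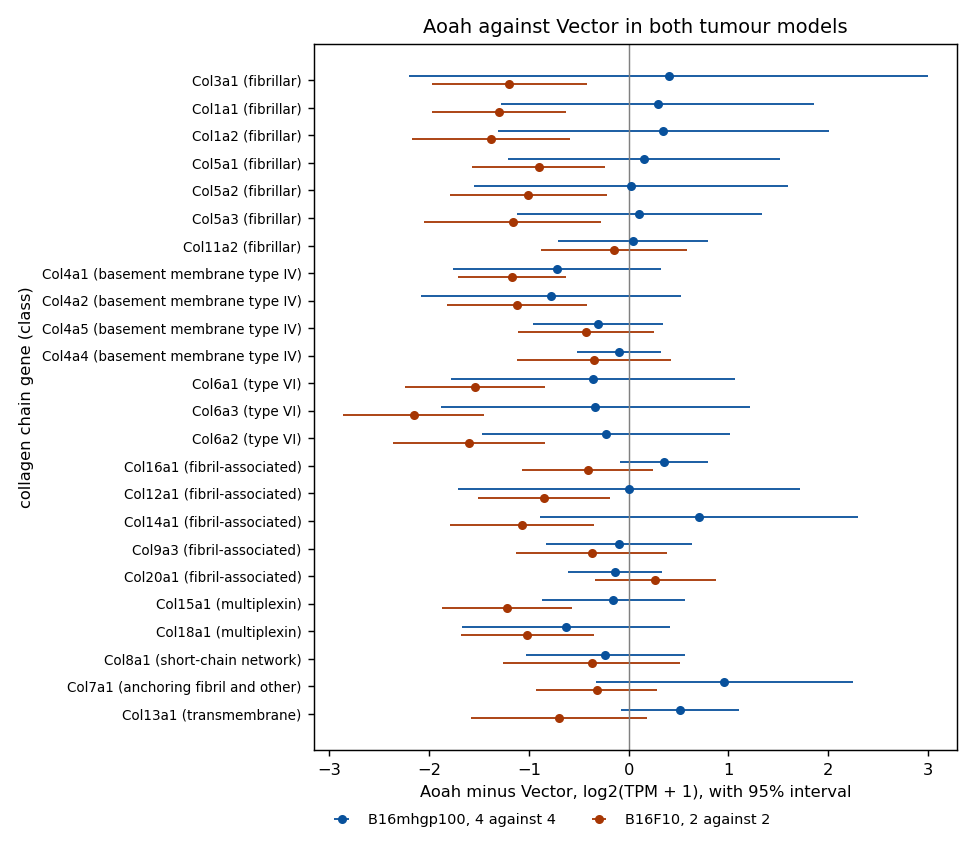
Aoah minus Vector on the log2(TPM + 1) scale, with 95% intervals from limma, for the 24 chains that passed the filter in both models, by class; blue is B16mhgp100 (4 against 4) and red B16F10 (2 against 2). In B16F10 23 of 24 points are below 0, and in B16mhgp100 every interval includes 0.

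In the authors' deposited table for B16F10, made with DESeq2 per the submitters' processing notes, 31 of the 44 chains had an adjusted p. Of these, 16 were lower with Aoah at an adjusted p under 0.05 and 0 were higher, where 3.88% of all genes in the authors' deposited table were lower and 4.65% higher. The 16 were 13 of the 14 abundant chains, without Col16a1, and also Col12a1, Col14a1 and Col6a5. The authors' deposited table gave Col6a3 a log2 fold change of -2.31 (adjusted p = 4.094e-11). For Col6a5 the authors' deposited table gave -8.84 (adjusted p = 0.0481), a value that rests on a gene at 0 in both Aoah libraries. The count model of the deposited table and limma on TPM thus gave the same direction for the abundant chains and different numbers past the threshold.

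Genes whose products act on collagen did not all move with the chains. All 11 of the 12 fibril and basement membrane partners that passed the filter had negative differences in B16F10 (median -0.73), among them Fn1, the gene of fibronectin (-1.06, SE 0.17, limma adjusted p = 0.075), Nid1, which links laminin to type IV collagen (-1.17, adjusted p = 0.111), and Lum, a small fibril-binding proteoglycan (-1.03, adjusted p = 0.153). By contrast, 9 of 18 collagen folding and modification genes were above 0 and 9 below, with a median of -0.00, and Plod2, a lysyl hydroxylase, had the smallest p (-0.59, adjusted p = 0.171). Propeptide cleavage and cross-linking genes had 6 of 9 below 0 (median -0.06), breakdown genes and their inhibitors 6 of 10 (median -0.13), and collagen receptors 2 of 5 (median 0.36). Ctsk, a collagen-degrading cathepsin, had -1.45 (adjusted p = 0.0851). None of these companion genes passed the limma threshold.

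Most markers of matrix-making cells were lower in the same tumours. The summed level of 8 endothelial markers was 117 and 178 TPM with Vector and 76.3 and 73.9 TPM with Aoah, with 7 of 8 genes below 0 (median -1.04). The sum of 8 fibroblast markers was 104 and 89.7 TPM with Vector and 62.1 and 58.7 TPM with Aoah. Of these 8, 6 were below 0 (median -0.62). Most of the fall in the sum came from Postn, at 51.1 and 21.4 TPM with Vector and 6.40 and 2.91 TPM with Aoah. Thy1 went the other way, at 20.6 and 26.8 TPM with Vector and 31.1 and 37.2 TPM with Aoah. The sum of 7 pericyte and smooth muscle markers was 30.6 and 74.0 TPM with Vector and 21.2 and 18.1 TPM with Aoah. Of those that passed the filter, 6 of 6 were below 0 (median -0.76). None of these markers was at 0 in any library, and none passed the limma threshold. Melanocyte markers summed to 18545 and 21778 TPM with Vector and 29292 and 28245 TPM with Aoah, with 5 of 7 above 0. Most of the rise in the sum came from Pmel, at 7197 and 8252 TPM with Vector and 15881 and 14592 TPM with Aoah. Mlana and Mitf were below 0. Macrophage markers summed to 299.2 and 296.7 TPM with Vector and 567 and 501 TPM with Aoah, with 5 of 6 above 0. Keratinocyte markers summed to 0.53 and 16.8 TPM with Vector and 13.6 and 17.4 TPM with Aoah. Of these 6, 2 passed the filter. Krt10, a keratin of upper epidermis, was 0.28 and 0.58 TPM with Vector and 9.49 and 13.37 TPM with Aoah (3.11, limma adjusted p = 0.0384). Krt10 passed the filter through the Aoah tumours alone, so that a difference in it was built into the filter. The other gene past the filter was Krt14, at 0.0 and 5.76 TPM with Vector and 2.61 and 2.01 TPM with Aoah. Krt5 did not pass the filter, at 0.15 and 8.68 TPM with Vector and 0.60 and 0.73 TPM with Aoah. Skeletal muscle markers had 4 of 4 below 0 (median -1.37), with sums of 18.2 and 166.7 TPM with Vector and 17.1 and 16.1 TPM with Aoah. Adipocyte markers had 2 of 2 below 0, with sums of 33.3 and 120.04 TPM against 29.1 and 22.0 TPM. Of 5 cartilage and bone markers only Sox9 passed the filter (2.09, limma adjusted p = 0.0585). The part of these cell types in the collagen differences was not tested.

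In B16mhgp100 tumours no difference between Aoah and Vector was detectable for any collagen chain, and the tumours of each group were far apart. With the filter of 1 TPM in at least 4 of 8 libraries, 26 chains were tested, 14 with a positive and 12 with a negative difference, where 30.0% of all genes were positive. After rescaling by median of ratios 17 were positive and 9 negative. The median was 0.01 against -0.20 over all 14228 genes, and rescaling moved these to 0.14 and -0.02. In limma with Benjamini-Hochberg adjustment 0 of 26 chains passed, as did 0.0% of all genes, with a smallest adjusted p of 0.694. At an unadjusted p of 0.05 0 chains passed, where 2.46% of all genes did. In no chain were the groups without overlap, where 0.731% of all genes had every Aoah tumour above every Vector tumour and 5.15% the reverse. The authors' deposited table for this model listed 0 of 41 chains past the same threshold, where 0.0146% of its genes were higher and 0.0% lower.

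Directions by class depended on single tumours. All 9 fibrillar chains past the filter had positive differences (median 0.16), but 7 of 9 were negative without Aoah 2 and 7 of 9 without Vector 2. With a pseudocount of 0.1 2 of the 9 were negative. All 3 type VI chains were negative (median -0.33), and all 3 were positive without the library labelled Aoah 4. The 4 type IV chains were negative (median -0.51) with each of these left out and after rescaling, with a median of -0.08 without the library labelled Aoah 4. The multiplexins were both negative, and Col15a1 turned to 0.049 after rescaling.

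Col3a1 stood at 412, 37.4, 139.6 and 153 TPM in B16mhgp100 Vector tumours 1 to 4 and at 356, 1218, 26.3 and 87.2 TPM in Aoah tumours 1 to 4. Its difference was 0.40 (SE 1.15, limma adjusted p = 0.866), and it was -0.52 without Aoah 2 and 1.31 without Aoah 3. Col1a1 had 189, 40.5, 75.9 and 102 TPM with Vector and 138, 337, 33.7 and 84.7 TPM with Aoah (0.29, SE 0.69, limma adjusted p = 0.837). Col1a2 had 175, 31.2, 67.4 and 98.2 TPM with Vector and 117, 309.8, 27.7 and 95.2 TPM with Aoah (0.35, SE 0.73, limma adjusted p = 0.816). In all 3 genes Vector 1 and Aoah 2 were the high tumours of their groups, Vector 2 and Aoah 3 the low ones, and the Aoah range enclosed the Vector range.

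The type V chains had the same high tumours. Col5a1 had 31.98, 10.5, 16.3 and 21.1 TPM with Vector and 26.9, 65.9, 11.1 and 8.84 TPM with Aoah (0.16, SE 0.60). Col5a2 had 29.7, 4.39, 19.7 and 16.4 TPM with Vector and 17.4, 48.95, 6.52 and 8.17 TPM with Aoah (0.02, SE 0.69). Col5a3 had 15.5, 4.29, 7.80 and 10.3 TPM with Vector and 13.3, 23.6, 4.07 and 5.56 TPM with Aoah (0.11, SE 0.54). Aoah 2 was the highest of the 8 tumours for each of these genes, and their limma adjusted p lay between 0.903 and 0.988.

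Col4a1 had 140.0, 62.7, 92.4 and 97.2 TPM with Vector and 93.6, 90.4, 56.1 and 21.8 TPM with Aoah (-0.72, SE 0.46, limma adjusted p = 0.694). Col4a2 had 98.1, 50.01, 70.00 and 70.2 TPM with Vector and 76.5, 65.9, 50.9 and 9.99 TPM with Aoah (-0.78, SE 0.58, limma adjusted p = 0.694). Col18a1 had 30.99, 15.3, 22.7 and 26.1 TPM with Vector and 22.4, 24.1, 16.1 and 4.91 TPM with Aoah (-0.62, SE 0.46). In all 3 genes the library labelled Aoah 4 was the lowest of the 8, and without it the differences were -0.27, -0.14 and -0.16. Col15a1, at 38.6, 14.9, 20.7 and 24.9 TPM with Vector and 23.6, 23.1, 13.8 and 25.4 TPM with Aoah, was not low in that library (-0.15, SE 0.32), where it stood 5.18 times above Col18a1 against 0.86 to 1.52 times in the other 11.

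Col6a1 had 49.4, 14.3, 27.9 and 26.5 TPM with Vector and 39.7, 49.96, 14.3 and 6.28 TPM with Aoah (-0.35, SE 0.63). Col6a2 had 39.7, 10.7, 21.3 and 22.1 TPM with Vector and 30.5, 38.05, 11.04 and 7.85 TPM with Aoah (-0.23, SE 0.55). Col6a3 had 45.2, 10.2, 29.1 and 39.3 TPM with Vector and 35.1, 59.1, 14.3 and 6.47 TPM with Aoah (-0.33, SE 0.68). As with the fibrillar chains, Aoah 2 and Vector 1 were high and Vector 2 was low, while the lowest tumour was the library labelled Aoah 4. Col16a1 had 43.8, 34.7, 41.3 and 40.6 TPM with Vector and 42.4, 49.8, 47.7 and 68.5 TPM with Aoah (0.35, SE 0.19, limma adjusted p = 0.694), and the library labelled Aoah 4 was its highest. The largest differences in each direction were 0.96 for Col7a1 and -0.78 for Col4a2, and the limma adjusted p of both was 0.694. Without the library labelled Aoah 4 Col7a1 was 0.43, and the largest positive difference was that of Col2a1, at 1.22 (SE 0.40, limma adjusted p = 0.560).

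Fibroblast markers summed to 225, 32.7, 86.5 and 96.2 TPM in the 4 Vector tumours and to 174, 483, 37.1 and 553 TPM in the 4 Aoah tumours. In the first 3 Aoah tumours and the Vector tumours this sum had the same highest and lowest tumour as Col3a1 in each group. The library labelled Aoah 4 departed from that, with the highest fibroblast sum and 87.2 TPM of Col3a1; Dcn, a fibril-binding proteoglycan, was 303 TPM there and Pdgfra 3.15 TPM. No fibroblast, endothelial or pericyte marker was at 0 in any library. The part of these cells in the spread of the chains was not tested.

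The epidermal collagens were high in a single tumour. Col17a1, the transmembrane collagen of hemidesmosomes in basal keratinocytes, had 13.8 TPM in the library labelled Aoah 4 and at most 0.68 TPM in the other 11, 3 of which were listed at 0. Col7a1, the chain of the anchoring fibrils below the epidermis, had 10.2 TPM there and at most 2.70 TPM elsewhere. Krt14 stood at 600.1 TPM and Krt5 at 239 TPM in that library, against at most 6.23 and 16.1 TPM in the others. All 6 keratinocyte markers were above 0 there. The part of skin in these 2 chains was not tested. Col2a1, the type II chain of cartilage, was high in another tumour, at 12.85 TPM in B16mhgp100 Aoah 3 against 0.50 to 5.34 TPM in the rest. Of the cartilage and bone markers in that tumour, Acan was 0.09 TPM and Comp 0.09 TPM, and Sox9 was 2.76 TPM. Ibsp was 0.62 TPM, its highest value over the 12 libraries, and Bglap was 0.0 TPM.

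**Figure D5:**
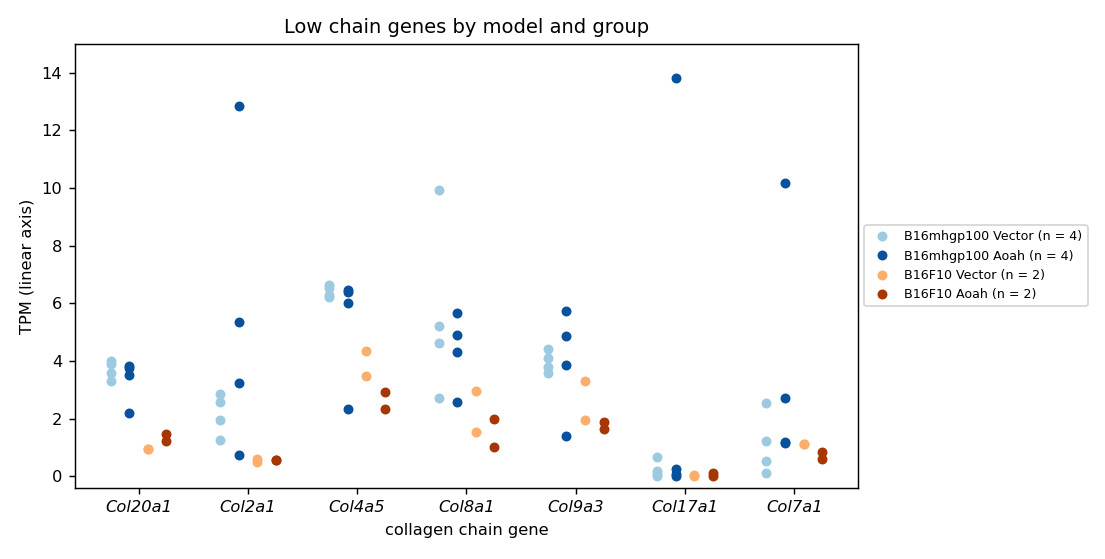
TPM (linear axis) of 7 less abundant chains, 1 point per library, coloured by group (n = 4, 4, 2 and 2). Col20a1 and Col2a1 are higher in every B16mhgp100 library than in every B16F10 library, and the high points of Col17a1 (13.8 TPM) and Col7a1 (10.2 TPM) are the library labelled Aoah 4.

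Whether the Aoah effect differed between the models was tested on all 12 libraries together, as the B16mhgp100 effect minus the B16F10 effect. Of 28 chains past the filter, 27 had a more positive Aoah effect in B16mhgp100 than in B16F10, where 38.5% of all genes did, and the median difference of effects was 0.85 against -0.16. In limma with Benjamini-Hochberg adjustment 0 chains passed, where 0.0302% of all genes did, and 3 chains were higher at an unadjusted p of 0.05, where 2.25% of all genes were. The 3 were Col13a1 (1.21, SE 0.47), Col9a1 (0.84, SE 0.34) and Col16a1 (0.76, SE 0.34), and the limma adjusted p of each was at least 0.827. Col9a1 ranged from 0.17 to 1.06 TPM and Col13a1 from 0.36 to 3.62 TPM, near the filter. Col9a1 reached 1 TPM only in B16mhgp100 Aoah 2 (1.06 TPM) and B16F10 Vector 2 (1.02 TPM). Both of these groups count positively in the difference of effects, so the filter favoured a positive value for Col9a1. Col16a1 ranged from 30.8 to 68.5 TPM. The largest difference of effects was that of Col6a3, at 1.82 (SE 1.07, 95% interval -0.54 to 4.19, limma adjusted p = 0.849), and Col20a1 had the only negative one (-0.40). An Aoah effect on collagen that differs between the models was therefore not shown by this test. Of the 24 chains tested in both models, 12 were positive in B16mhgp100 and negative in B16F10, and 11 were negative in both. Without the library labelled Aoah 4 27 of 28 were also positive, with 0 past the threshold. Without B16F10 Vector 2 the chain Col6a5 passed the threshold of the interaction; it reached 1 TPM only in B16F10 Vector 1.

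Between the models 1 chain differed past the threshold. Col20a1, a little-studied fibril-associated chain, stood at 3.32, 3.99, 3.57 and 3.91 TPM in B16mhgp100 Vector tumours and at 3.51, 3.83, 3.76 and 2.18 TPM in B16mhgp100 Aoah tumours. In B16F10 it stood at 0.95 and 0.93 TPM with Vector and 1.22 and 1.45 TPM with Aoah. Every B16mhgp100 tumour was above every B16F10 tumour. The B16mhgp100 level was 2.10-fold higher on the log2(TPM + 1) scale (difference 1.07, SE 0.16, limma adjusted p = 0.00299), and the call held without each library in turn, with adjusted p of at most 0.0288. This was 1 of 28 chains, where 7.37% of all 16556 genes were called, 3.71% as higher in B16mhgp100.

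Col2a1 was the other chain without overlap between the models, against 2.51% of all genes in that direction. Col2a1 passed the filter through the B16mhgp100 tumours alone, so that a difference in it was built into the filter. It stood at 1.95, 2.57, 1.27 and 2.84 TPM in B16mhgp100 Vector and 3.25, 5.34, 12.85 and 0.74 TPM in B16mhgp100 Aoah tumours, and at 0.59 and 0.50 TPM and 0.58 and 0.56 TPM in the B16F10 groups. Its difference was 1.34 (SE 0.43, limma adjusted p = 0.0902), and the lowest B16mhgp100 value, in the library labelled Aoah 4, was close to the B16F10 range. Of the 28 chains 23 were above 0, as were 53.0% of all genes, with a median of 0.48 against 0.03 over all genes. Col27a1 and Col28a1, both among the 23, also passed the filter through the B16mhgp100 tumours alone. A difference in them was therefore built in as well. Col6a1 (-0.47) and Col6a2 (-0.37) were lower, short of the threshold.

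The library labelled Aoah 4 decided how many chains passed. Without it 8 of 28 chains (28.6%) were higher in B16mhgp100 at a limma adjusted p under 0.05, where 20.8% of all genes were higher, and 0 were lower, where 11.8% of all genes were. They were Col20a1, Col2a1, Col4a5, Col4a1, Col4a2, Col9a3, Col8a1 and Col18a1. Of these, Col2a1 had passed the filter through the B16mhgp100 tumours alone. Col4a5 stood between 6.02 and 6.62 TPM in the other 7 B16mhgp100 tumours, at 2.32 TPM in the library labelled Aoah 4 and between 2.35 and 4.33 TPM in the B16F10 tumours. It was thus a narrow band in 7 tumours above all 4 of the other model. With all 12 libraries, 7.37% of all genes were called. Of 19 folding and modification genes kept, Sparc, a collagen-binding matricellular protein (1.32), was higher in B16mhgp100 and Fkbp10, a collagen chaperone (-1.27), lower. Pcolce, an enhancer of procollagen cleavage (1.40), was 1 of 10 cleavage and cross-linking genes called. Lamc1, a laminin chain (0.59), was 1 of 11 partners, and Vwf (1.69) 1 of 8 endothelial markers. Sox9 (-1.15), lower in B16mhgp100, was the only cartilage and bone marker kept. It was 14.1 and 11.8 TPM in the B16F10 Aoah tumours but 2.57 and 2.00 TPM in the B16F10 Vector tumours. The B16mhgp100 tumours ranged from 1.05 to 3.01 TPM, so the Sox9 call rested on the B16F10 Aoah tumours. The limma adjusted p of these called genes lay between 0.0005 and 0.0393. In the other companion and marker lists no gene was called.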

How the data were processed

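RNA from 12 tumours was sequenced after oligo(dT) selection. The authors deposited expression as log2 values, which became TPM after removal of a pseudocount of 1, and the totals were 992185 to 996590 per library. They are transcript abundances from RSEM on mm39, per the submitters' processing notes, whose versions no source here gives. TPM keeps no read depth, so no counting interval can be given, and RSEM shares reads among similar genes. The authors also deposited, per model, a table of log2 fold changes and of raw and adjusted p-values, from DESeq2 per the submitters' processing notes.

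Groups came from the sample titles. Tests used limma (3.58.1, R 4.3.3) on log2(TPM + 1) with an intensity trend, 2-sided, with Benjamini-Hochberg adjustment over all genes kept (at least 1 TPM in 4 libraries for B16mhgp100, in 2 for B16F10 and for all 12) and a threshold of 0.05. Fold changes on this scale understate the change of low genes. Each model was fitted alone. For the interaction and the model difference, 4 group means were fitted to the 12 libraries at once. Fits were tested on simulated data.

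The chains, their classes and the companion and marker lists were chosen with earlier results of these data known, and the 39 ratio tests were added after seeing the data. Named are chains with a mean of at least 10 TPM, chains past the threshold, the highest chain of each class and the largest difference in each direction. In the companion lists, members past the threshold are named, or otherwise up to 3 with the smallest p. Col9a1, Col9a3, Col10a1, Col11a2, Col12a1, Col14a1, Col17a1, Col2a1, Col4a4, Col4a5, Col6a4, Col6a5 and Col6a6 were otherwise chosen after their values were seen. Col27a1 and Col28a1 are named from the check for tumours far from their group and for how they passed the filter. The markers Postn, Thy1, Pmel, Mlana and Mitf were also named after their values were seen. Alternatives were a pseudocount of 0.1, no filter, median-of-ratios scaling, the replicate number as a block, 1 fit of all libraries and leaving out each replicate. Protein sequences were not used here.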

Additional observations from a re-analysis of the deposited data

Results flagged for a closer look

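Values per group of 4 tumours were checked for 1 tumour far from its group by Dixon's test in 76 groups of values, and 6 were marked, where chance marks about 1 in 20. In the B16mhgp100 Vector group Col14a1 was 14.1 TPM in Vector 1 with the nearest tumour at 4.07 TPM, and Col28a1 was 1.81 TPM in Vector 1 with the nearest at 0.30 TPM. Col27a1, a minor fibrillar chain, was 0.37 TPM in Vector 2 with the nearest at 1.00 TPM. In the B16mhgp100 Aoah group the library labelled Aoah 4 had 13.8 TPM of Col17a1 with the nearest at 0.26 TPM, 2.32 TPM of Col4a5 with the nearest at 6.02 TPM, and 18.3 TPM of summed transmembrane chains with the nearest at 4.14 TPM.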

How the results depend on the processing

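In B16F10 the count of chains past the threshold was 0 with a pseudocount of 0.1, without a filter, after rescaling, in the fit of all 12 libraries and without each replicate. Genes called went from 50 to 32 with a pseudocount of 0.1, to 0 without a filter and to 131 after rescaling, and to 0 without each replicate; the chain median was -0.37 without a filter, which admits 20 low chains, and -1.09 to -0.77 without each replicate. In B16mhgp100 1 gene was called with a pseudocount of 0.1 and 0 to 2 without each replicate, the chain median was then -0.28 to 0.20, and Col15a1 was 0.049 after rescaling. Without each replicate its chains ranged from -0.52 to 1.31 (Col3a1), -0.26 to 0.84 (Col1a1), -0.20 to 0.95 (Col1a2), -0.76 to 0.18 (Col6a1), -0.81 to 0.19 (Col6a3), -0.57 to 0.14 (Col6a2), -0.36 to 0.079 (Col15a1), -0.39 to 0.54 (Col5a1), -0.53 to 0.38 (Col5a2) and -0.31 to 0.45 (Col5a3). For the interaction 46 genes were called without a filter, 10 after rescaling and 2 to 45 without each replicate, with 0 to 1 chains and a chain median of 0.61 to 1.14. Between the models 2137 genes were called after rescaling and 415 to 5303 without each replicate, with 1 to 8 chains and a chain median of 0.34 to 0.61; 2 chains were called without a filter (with Col10a1) and 2 after rescaling (with Col4a5). The causes were not tested. A lone tumour left in a B16F10 group is assumed to vary like the others.

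The labels do not say whether equal replicate numbers mark pairs. Deviations of equal numbers correlated at -0.25, -0.29, 0.02 and -0.06 in B16mhgp100, and those of unequal numbers at -0.46 to 0.47. In B16F10 equal numbers correlated at -0.11 and crossed numbers at 0.11. With 2 tumours a group the deviations mirror each other, so the B16F10 values cannot decide it. Pairing was therefore not settled. With the replicate number as a block, 9 chains and 765 genes were called in B16F10, 3 genes for the interaction and 280 between the models, where Col6a1 was 0.055. With crossed numbers in B16F10, an alternative chosen after seeing the data, the block gave 10 chains and 910 genes.

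TPM limits the precision: reads per gene are unknown, and the counting error of values near 1 TPM with them. With 2 tumours a group in B16F10 the adjusted p of 14 abundant chains ran from 0.0585 to 0.465.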
